A study of Homo sapiens with 10 samples.

Results

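In MCF10A-ER-Src cells, 10658 of the 80265 STAT3 peaks found in transformed cells (13.3%) lay where neither STAT3 nor any other profiled factor had a summit before transformation and where at least 1 AP-1 protein had one afterwards. A site was counted here when a FOS, JUN or JUNB summit of transformed cells lay within 300 bp of the STAT3 summit and no summit from any of the 5 lists of non-transformed cells lay within 300 bp. These sites are called jointly gained below, where gained means listed in transformed cells only. They were selected on measured binding, so the presence of STAT3 and AP-1 after transformation and the lack of a nearby summit before it are descriptions of the choice. NFKB1 in transformed cells was the readout that the choice did not use.

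MCF10A-ER-Src is the immortalised, non-tumorigenic mammary epithelial line MCF-10A with an added v-Src kinase joined to the hormone-binding part of the estrogen receptor, which makes the kinase respond to tamoxifen. Both states carry this fusion. Transformed cells had received 1 µM 4-hydroxy-tamoxifen for 12 h according to the labels, and non-transformed cells had received ethanol. Library names in the file headers carry 36 h for the ethanol state and 12 h for the tamoxifen state. They also carry different replicate letters in the 2 states for STAT3 (repB1 and repA) and JUNB (repC and repA), and the same letter for FOS, JUN and NFKB1. Sites gained by STAT3 thus rest on libraries from differently named replicate sets, and the part of this was not tested. FOS, JUN, JUNB, NFKB1 and STAT3 were each profiled by ChIP-seq in both states with 1 library per protein and state, so no difference between states has a replicate check. The STAT3 antibody in the labels carries the catalogue number of one raised against tyrosine-phosphorylated STAT3. Every interval below is a 95% interval that covers the sampling of sites and not the variation between cultures.

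STAT3 is a latent transcription factor that is phosphorylated on tyrosine by JAK kinases downstream of IL-6 family cytokines, or by Src, and then dimerises and binds DNA in the nucleus. AP-1 is a family of leucine-zipper dimers. FOS binds DNA only together with a partner such as a JUN protein, whereas JUN and JUNB can also pair with each other, and JUNB is often a weaker activator than JUN. NFKB1 encodes the p50 subunit of NF-κB, the inflammatory factor that acts with STAT3 in the positive feedback loop for which the ER-Src model is known. Other FOS and JUN family members that could serve as partners were not analysed here.

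The 10 libraries held 4837474 to 22082403 reads after the filter for repeated positions. In transformed and non-transformed cells, respectively, FOS had 22082403 and 18619521 reads, JUN 18454386 and 15852999, and JUNB 15750765 and 9178601. NFKB1 had 9674390 and 4837474, and STAT3 was the one protein with fewer reads after transformation, 8967267 against 10929003. The lists of non-transformed FOS, JUN, JUNB and NFKB1 binding thus came from fewer reads than their counterparts, and the part of depth in the choice of sites was not tested. All positions are in the hg19 build named in the labels. Sequence and gene annotation of that build were not used here, so motifs and neighbouring genes at the sites were not analysed.

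Most jointly gained sites had a FOS summit, as did most STAT3 peaks of transformed cells. A FOS summit lay within 300 bp at 9596 of them (90.0%, 89.5 to 90.6%), a JUN summit at 4655 (43.7%, 42.7 to 44.6%) and a JUNB summit at 4226 (39.7%, 38.7 to 40.6%). Over all STAT3 peaks of transformed cells these shares were 82.5% for FOS, 74.7% for JUN and 66.4% for JUNB. FOS was therefore listed more often than over all STAT3 peaks, which include peaks with no AP-1 summit, and JUN and JUNB less often. At STAT3 sites gained where AP-1 was listed before transformation, FOS was more frequent still (95.1%). The FOS list of transformed cells was also the longest, with 164605 summits against 127335 for JUN and 101014 for JUNB. The rule asked for at least 1 of the 3 proteins, so the shares at the jointly gained sites are descriptions.

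Most jointly gained sites did not carry the full AP-1 set. FOS alone was listed at 4291 sites (40.3%), JUN alone at 749 (7.03%) and JUNB alone at 228 (2.14%). Pairs were listed at 1392 sites for FOS with JUN (13.1%), at 1484 for FOS with JUNB (13.9%) and at only 85 for JUN with JUNB (0.797%). All 3 proteins were listed at 2429 sites (22.8%, 22 to 23.6%), against 60.6% of all STAT3 peaks of transformed cells.

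The most similar group of STAT3 sites for comparison is the 28059 sites where STAT3 was also gained but where an AP-1 summit, and no NFKB1 summit, was already listed within 300 bp in non-transformed cells. These are called sites with prior AP-1 below. All 3 AP-1 proteins were listed after transformation at 75.4% of them (74.9 to 75.9%), and exactly 1 at 8.81%, against 49.4% (48.5 to 50.4%) of the jointly gained sites. The 2 groups thus differed chiefly in JUN, listed at 43.7% against 89.8% of sites, and in JUNB, at 39.7% against 81.7%. For FOS the difference was small, at 90.0% against 95.1%.

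**Figure D1:**
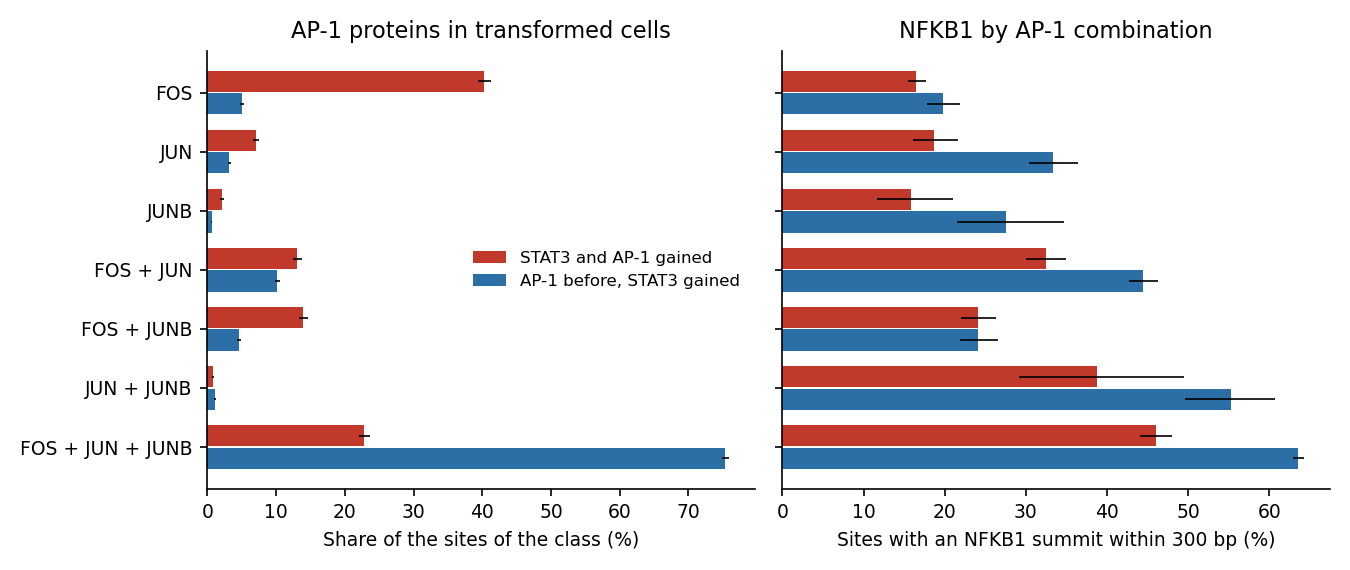
The left panel gives the share of sites (%) with each combination of FOS, JUN and JUNB summits within 300 bp in transformed cells, and the right panel the share of those sites (%) with an NFKB1 summit. Red bars are the 10658 jointly gained sites, blue bars the 28059 sites with prior AP-1, and lines are Wilson 95% intervals. FOS alone is the most frequent combination in red (40.3%) and all 3 proteins in blue (75.4%). In both groups the NFKB1 share is highest where all 3 are present, at 46.0% and 63.6%.

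STAT3 itself was about as strong at the jointly gained sites as at the sites with prior AP-1. Its summit pileup, which counts the extended reads covering the summit, had a median of 9 reads at the jointly gained sites, with quartiles of 7 and 15 and a range of 4 to 123. Per 1000000 filtered reads (written RPM below), the median was 1.00 (quartiles 0.781 and 1.67). The fold enrichment, which MACS gives as the pileup over the local background, had a median of 7.15 (7.05 to 7.17) against 7.17 (7.16 to 7.17) at the sites with prior AP-1. The quartiles were 5.58 and 10.8 against 5.67 and 10.0. The levels of the 2 groups overlapped almost throughout.

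Both gained groups were weaker than the 30809 STAT3 sites that already had a STAT3 summit in non-transformed cells, where the median fold enrichment was 13.1 (12.9 to 13.4). They were stronger than the 7375 gained STAT3 sites with no AP-1 summit in either state and no NFKB1 summit before, where it was 5.73 (5.69 to 5.73). These are called gained sites without AP-1 below. A further 2124 gained sites had AP-1 and NFKB1 summits before transformation and an AP-1 summit after it. The remaining 1240 gained sites are kept apart from all of these. They had NFKB1 as their only earlier summit, or an earlier AP-1 summit but none after transformation. Among quartiles of STAT3 significance over the whole list, 34.5% of the jointly gained sites fell in the weakest and 15.7% in the strongest. A STAT3 fold enrichment of at least 30 was found at 219 of the 10658 jointly gained sites. The share of all STAT3 peaks above that value was not computed. The upper quartile was 10.75 at jointly gained sites, 14.29 over all STAT3 peaks and 23.05 at sites with prior STAT3.

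AP-1, in contrast, was weaker at the jointly gained sites than at those with prior AP-1. Where FOS was listed, its median fold enrichment was 7.25 (7.25 to 7.32) against 16.0 (15.8 to 16.0), and its pileup in RPM was 0.634 against 1.45. JUN had a median fold enrichment of 5.49 (5.49 to 5.66) against 9.72 (9.57 to 9.87), and JUNB of 6.28 (6.28 to 6.29) against 11.7 (11.4 to 11.9). The interquartile ranges were 5.41 to 10.5 and 10.0 to 23 for FOS and barely overlapped. Since the choice required that no AP-1 summit be listed before transformation, these AP-1 levels are not independent of it.

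NFKB1 did not show such a gap in level. At the 2844 jointly gained sites where it was listed, its median fold enrichment was 6.29 (6.24 to 6.29), against 6.56 (6.42 to 6.66) at 15814 sites with prior AP-1. The quartiles were 4.99 and 8.65 against 5.48 and 8.68.

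**Figure D2:**
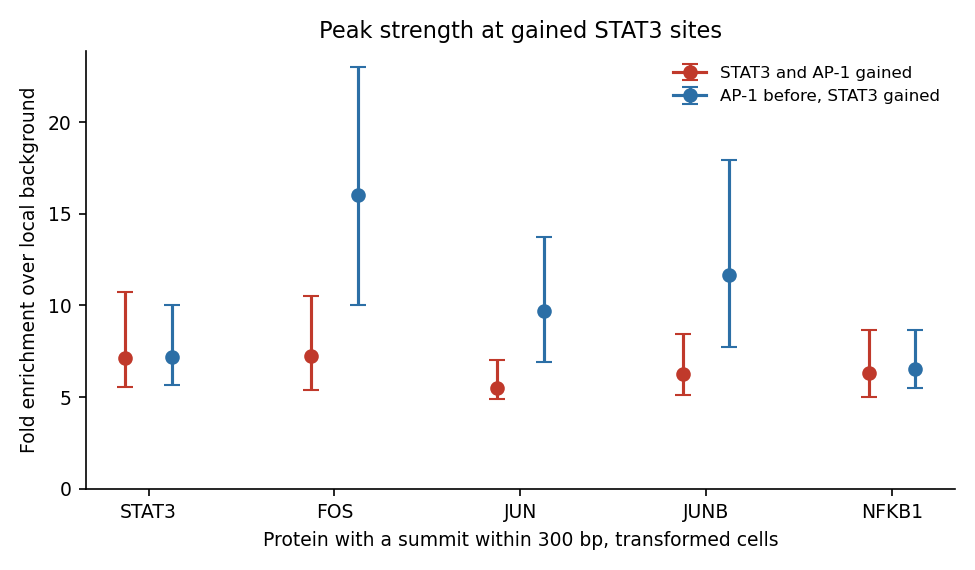
Fold enrichment over the local background (linear axis) of each protein in transformed cells, where it had a summit within 300 bp of the STAT3 summit. Points are medians over sites and lines the interquartile ranges, in red for jointly gained sites and in blue for sites with prior AP-1. STAT3 medians are 7.15 and 7.17, whereas FOS medians are 7.25 and 16.0.

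Within the jointly gained sites, the STAT3 level differed between AP-1 combinations and had its highest median where all 3 were listed. The median STAT3 fold enrichment was 5.73 at sites with JUN alone and at sites with JUNB alone, and 6.46 at sites with FOS alone. It was 6.11 with JUN and JUNB, below the value for FOS alone, 6.85 with FOS and JUN, 7.69 with FOS and JUNB and 9.32 with all 3. FOS enrichment had a median of 5.84 where FOS was alone, 6.66 with JUN, 8.72 with JUNB and 12.1 with both. At sites with prior AP-1 the STAT3 median was likewise highest with all 3 (7.62) and lowest with JUN alone or JUNB alone (5.73). The FOS medians there were 6.84, 6.73, 9.83 and 18.6, in the same order. In terms of pileup in RPM, the Spearman correlation of STAT3 with FOS across the 9596 sites that had both was 0.34, as a description of these sites. With JUN it was 0.21 (4655 sites), with JUNB 0.23 (4226 sites) and with NFKB1 0.10 (2844 sites). At sites with prior AP-1 the correlations were 0.36 with FOS, 0.26 with JUN, 0.26 with JUNB and 0.28 with NFKB1. Over all STAT3 peaks of transformed cells they were 0.42, 0.38, 0.34 and 0.38, respectively. Each of these was above its counterpart at the jointly gained sites. The values of a pair come from different libraries but from the same position, and so share its mappability and base composition.

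The levels at these sites in transformed cells were set beside those listed in non-transformed cells. At 99.6% of the jointly gained sites the STAT3 pileup in RPM was above the lowest value listed for STAT3 in non-transformed cells (0.458), and at 94.1% above the 10th percentile of that list (0.641). At 56.3% it was above the median of that list (0.915). Over all STAT3 peaks of transformed cells the 10th percentile was 0.669 RPM and the median 1.23 RPM, each above its counterpart in non-transformed cells. The high shares above the lowest value and the 10th percentile are thus not particular to the jointly gained sites. For FOS, 80.5% of the 9596 sites were above the 10th percentile of the non-transformed list and 32.4% above its median. For JUN these shares were 69.1% and 24.1%, and for JUNB 52.4% and 15.1%. Most AP-1 levels thus lay below the median of the non-transformed list. The median of the whole transformed list was also below it for FOS (0.725 against 0.859 RPM) and JUNB (0.952 against 1.09 RPM). For JUN it was slightly above (0.704 against 0.694 RPM). The libraries differ in depth and background, and whether the sites were bound below the threshold of those lists was not tested. They also differ in the length to which reads were extended, which affects the pileup. In non-transformed and transformed cells, respectively, it was 150 and 119 bp for STAT3 and 120 and 114 bp for FOS. For JUN it was 129 and 120 bp, and for JUNB 123 and 129 bp.

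NFKB1 was listed at fewer jointly gained sites than over all STAT3 peaks. An NFKB1 summit of transformed cells lay within 300 bp at 2844 of the 10658 sites (26.7%, 25.8 to 27.5%), against 57.1% of all STAT3 peaks. It was listed at 56.4% (55.8 to 56.9%) of the sites with prior AP-1, none of which had an NFKB1 summit before transformation. At the gained sites without AP-1, which by definition also had no NFKB1 before, it was listed at 559 of 7375 (7.58%, 7 to 8.21%), and at sites with prior STAT3 at 78.0% (77.6 to 78.5%). The jointly gained sites thus lay between the gained sites without AP-1 and those with prior AP-1, with intervals that did not overlap.

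This order held within each quartile of STAT3 significance. From the weakest to the strongest quartile, NFKB1 was listed at 20.4%, 25%, 25.7% and 45.0% of the jointly gained sites. At sites with prior AP-1 the shares were 44.3%, 53.8%, 64.7% and 76.4%, and at gained sites without AP-1 6.01%, 9.28%, 11% and 11.7%. Among the jointly gained sites the share was nearly the same in both middle quartiles and much higher in the strongest.

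**Figure D3:**
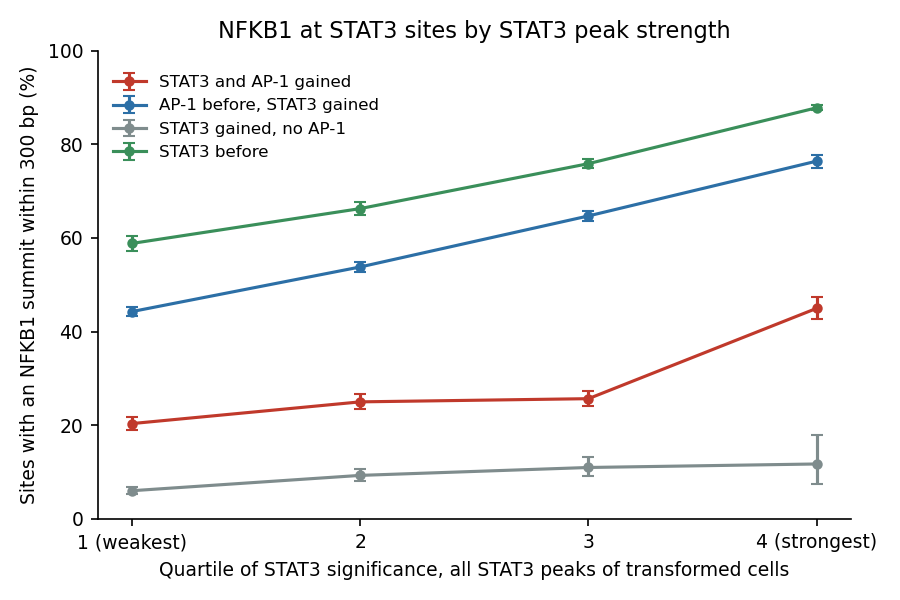
Share of STAT3 sites (%) with an NFKB1 summit within 300 bp in transformed cells, by quartile of STAT3 significance over all 80265 STAT3 peaks, with Wilson 95% intervals as bars. Jointly gained sites (red) run from 20.4% to 45.0%, above gained sites without AP-1 (grey) and below sites with prior AP-1 (blue) and with prior STAT3 (green) in all 4 quartiles.

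The NFKB1 share varied with the AP-1 proteins present. Jointly gained sites with a JUN summit had NFKB1 at 37.4% (36 to 38.8%) and those without at 18.4% (17.4 to 19.4%). For JUNB the shares were 36.5% with and 20.2% without, and for FOS 27.5% with and 19.7% without. Sites with FOS alone had NFKB1 at 16.5% (15.4 to 17.6%), and those with FOS and JUN at 32.5% (30.1 to 35.0%). Those with FOS and JUNB had it at 24.1% (22 to 26.4%), below the interval for FOS and JUN, and those with all 3 at 46.0% (44.0 to 48.0%). At the 85 sites with JUN and JUNB but not FOS the share was 38.8%, with a wide interval of 29.2 to 49.5%.

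Where FOS was present without JUN, the gap between the jointly gained sites and the sites with prior AP-1 was smallest. With FOS and JUNB, NFKB1 was listed at 24.1% of sites in both groups. With FOS alone it was listed at 16.5% (15.4 to 17.6%) against 19.8% (17.8 to 21.9%), intervals that did not overlap. The gap was wider in the other 5 combinations. It was 46.0% against 63.6% (62.9 to 64.2%) with all 3 proteins, 32.5% against 44.5% (42.6 to 46.3%) with FOS and JUN, and 38.8% against 55.2% with JUN and JUNB. JUN alone gave 18.7% (16.1 to 21.6%) against 33.3% (30.3 to 36.5%), and JUNB alone 15.8% (11.6 to 21.1%) against 27.6% (21.5 to 34.7%).

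NFKB1 was also compared within quartiles of peak strength, which match the levels only roughly. Among sites with all 3 AP-1 proteins, the jointly gained ones had NFKB1 at 38%, 41.1%, 39.8% and 60.3% from the weakest to the strongest STAT3 quartile. Those with prior AP-1 had it at 51.6%, 60.3%, 70.0% and 79.8%. At these sites the AP-1 levels still differed, with median fold enrichments of 12.1 against 18.6 for FOS, 6.05 against 10.4 for JUN and 7.29 against 12.3 for JUNB, and their part in the NFKB1 shares was not tested. Among sites with FOS, grouped instead by quartile of FOS significance over the FOS list, the shares were 16.9%, 21.7%, 32.6% and 60.5% at jointly gained sites. They were 34.8%, 36.9%, 43.0% and 72.5% at sites with prior AP-1. In each of these quartiles the intervals of the 2 groups did not overlap. At the 823 jointly gained sites in the top FOS quartile NFKB1 was listed most often, at 60.5% (57.1 to 63.8%).

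The summits lay close together. The nearest AP-1 summit was a median of 21 bp (21 to 22 bp) from the STAT3 summit, within 25 bp at 55.4% of sites, within 50 bp at 76.0% and within 100 bp at 90.5%. By protein, the median distance to STAT3 was 27 bp for FOS, 33 bp for JUN, 30 bp for JUNB and 35 bp for NFKB1. At the sites with prior AP-1 these medians were 25, 27, 27 and 31 bp. The nearest AP-1 summit there was at a median of 14 bp, but more AP-1 summits were available to be the nearest. At sites with all 3 proteins the medians were 11 bp (11 to 12 bp) for the jointly gained sites and 12 bp (11 to 12 bp) for those with prior AP-1. MACS extended the reads of transformed cells to 114 to 129 bp, which is longer than these distances.

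The sites were mostly separate from each other. Only 138 of them (1.30%) shared their nearest AP-1 summit with another jointly gained site, and the 10658 sites had 10589 different nearest AP-1 summits. The STAT3 peaks were narrow, with a median length of 169 bp (quartiles 131 and 226 bp), and 77 of them (0.723%) were longer than 600 bp.

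The absence of a summit before transformation did not mean an empty neighbourhood. The nearest summit of any protein in non-transformed cells lay at a median of 2678 bp (quartiles 906 and 7859 bp, range 301 to 579125 bp). It was within 1 kb of 2881 jointly gained sites (27.0%), within 5 kb of 64.6%, within 10 kb of 8532 (80.1%) and within 50 kb of 98.8%. The gained sites without AP-1 had nearly the same shares, at 30.1%, 64.4%, 79.0% and 98.7%. Closeness to earlier binding at 10 kb was therefore hardly different between these groups, neither of which had an earlier summit within 300 bp.

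**Figure D4:**
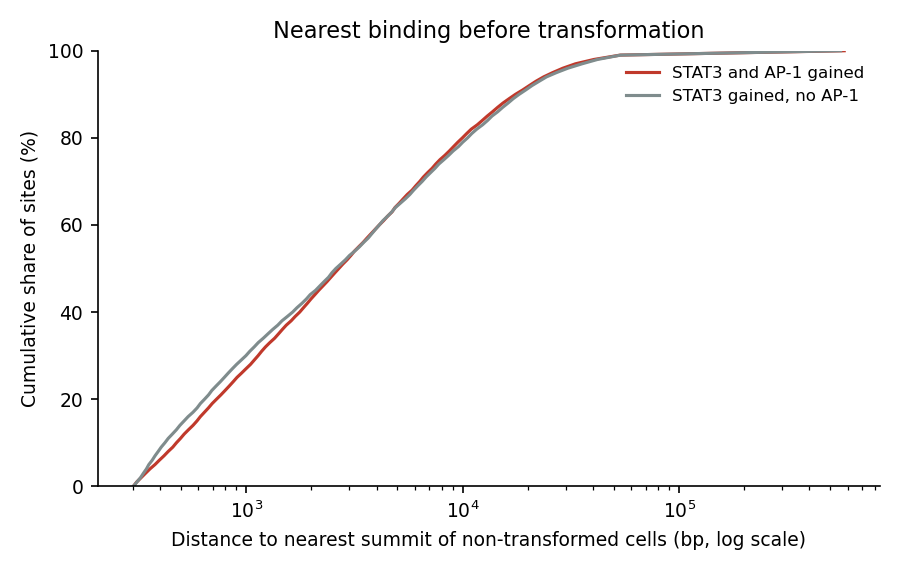
Cumulative share of sites (%) against the distance from the STAT3 summit to the nearest summit of any of the 5 proteins in non-transformed cells (bp, log axis). Jointly gained sites (red) and gained sites without AP-1 (grey) nearly coincide, with medians of 2678 and 2594 bp, and both start above 300 bp by the choice of sites.

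The earlier neighbour was most often an AP-1 summit. A FOS summit of non-transformed cells lay within 10 kb of 72.6% of the jointly gained sites, a JUN summit of 60.6%, a JUNB summit of 58.6%, a STAT3 summit of 46.0% and an NFKB1 summit of 20.6%. The nearest of all was a FOS summit at 4232 sites, JUN at 2528, JUNB at 1980, STAT3 at 1530 and NFKB1 at 388. The order follows the lengths of the non-transformed lists, from 119754 FOS to 13252 NFKB1 summits, with JUN, JUNB and STAT3 between them.

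The NFKB1 share was lowest in the group farthest from earlier summits, and the share with all 3 AP-1 proteins was lowest in the nearest group. NFKB1 was listed at 29.7% (28.1 to 31.4%) of the 2881 sites with an earlier summit at most 1 kb away, at 27.0% (25.8 to 28.2%) of the 5651 at 1 to 10 kb and at 21.8% (20.1 to 23.6%) of the 2126 farther than 10 kb. The first 2 of these intervals overlapped. All 3 AP-1 proteins were listed at 17.0% (15.7 to 18.5%), 24.7% (23.6 to 25.8%) and 25.5% (23.7 to 27.4%) of these sites, respectively, and there the last 2 intervals overlapped. The median STAT3 fold enrichment was 6.45 in the nearest group and 7.17 in both others.

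The deposited peak intervals allowed a check of the lack of prior binding. At 149 jointly gained sites (1.40%) the STAT3 peak overlapped a peak of non-transformed cells whose summit lay farther than 300 bp away. The overlapped peak was a FOS peak at 105 sites, a JUN peak at 55, a STAT3 peak at 41, a JUNB peak at 31 and an NFKB1 peak at 3, and some sites overlapped several. Without these sites NFKB1 was listed at 2770 of 10509 (26.4%, 25.5 to 27.2%).

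Jointly gained sites were spread over all the chromosomes analysed, 1 to 22 and X. They made up between 10.3% (8.90 to 11.9%) of the STAT3 peaks on chromosome 19 and 15.5% (13.4 to 17.8%) on chromosome 21. Another jointly gained site lay within 10 kb of 2275 of them (21.3%) and within 100 kb of 65.9%. A STAT3 peak of any other kind lay within 10 kb of 62.2%. Of 7685 windows of 100 kb that held a jointly gained site, 5575 held only 1.

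The 5 windows with the most sites held 6 to 8 each, a choice made on the values. At chr1:28400000-28499999, 8 of 15 STAT3 peaks were jointly gained, 6 of them with NFKB1 and 2 with all 3 AP-1 proteins, at STAT3 fold enrichments of 5.61 to 41.8. At chr8:23600000-23699999, 7 of 13 were, with 3 carrying NFKB1, and the fold enrichment reached 38.4. At chr17:67800000-67899999, 7 of 9 were, 4 of them with all 3 AP-1 proteins, but the fold enrichment reached only 12.4. The windows chr2:31600000-31699999 and chr2:67700000-67799999 each held 6 among 17 STAT3 peaks, none with all 3 AP-1 proteins.

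The 10 sites with the highest STAT3 fold enrichment mostly carried all the profiled proteins. In the strongest quartile of STAT3 significance, all 3 AP-1 proteins were listed at 44.6% of the 1670 jointly gained sites and NFKB1 at 45.0%. In that quartile these shares were 89.5% and 76.4% at sites with prior AP-1, and 85.7% and 87.8% at sites with prior STAT3. Among the 10 with the highest STAT3 fold enrichment, 9 had all 3 AP-1 proteins and NFKB1. The exception was the first in order, at chr17:4752074-4752838, with a STAT3 pileup of 109 reads (12.2 RPM) and a fold enrichment of 78.8. There a JUN summit 161 bp away (31 reads, 1.68 RPM) was the only AP-1 summit, and FOS, JUNB and NFKB1 had none within 300 bp. A STAT3 summit of non-transformed cells lay 329 bp away, with 2.93 RPM and a fold enrichment of 20.5, and its peak overlapped the 765 bp STAT3 peak. This site thus lies just inside the 300 bp limit. A second of the 10, at chr22:23557387-23558405 (fold enrichment 62.4), also overlapped an earlier STAT3 peak, whose summit was 460 bp away.

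The site at chr8:107297660-107298490 had the highest pileup of all jointly gained sites and no overlap with an earlier peak. It held 123 STAT3 reads (13.7 RPM), 74 FOS reads (3.35), 40 JUN reads (2.17), 48 JUNB reads (3.05) and 28 NFKB1 reads (2.89). All 4 other summits lay 3 to 22 bp from the STAT3 summit. It ranked first by the sum of significance ranks over STAT3, FOS, JUN and JUNB, and again when NFKB1 was added. The nearest earlier summit was a weak FOS summit 1560 bp away, at 0.591 RPM.

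The other sites of the first 10 had STAT3 at 8.36 to 10.5 RPM. At chr12:9376353-9376770 the STAT3 fold enrichment was 64.5, with FOS at 1.81, JUN at 0.813, JUNB at 1.02 and NFKB1 at 1.45 RPM. It was followed by chr1:114326620-114326996 (57.3), chr1:220498777-220499425 (56.1), chr1:18094982-18095377 (55.2), chr11:114936786-114937277 (55.2), chr5:77177536-77178035 (54.9) and chr7:2174409-2174826 (54.5). The sites were picked for high STAT3, so that STAT3 lay above the other proteins at each of them is largely set by the choice. FOS ranged from 1.36 to 3.35 RPM and JUN from 0.488 to 2.17. NFKB1 ranged from 0.517 to 3 at the 9 sites that had it. Levels of different proteins come from different antibodies and are not amounts of protein.

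**Figure D5:**
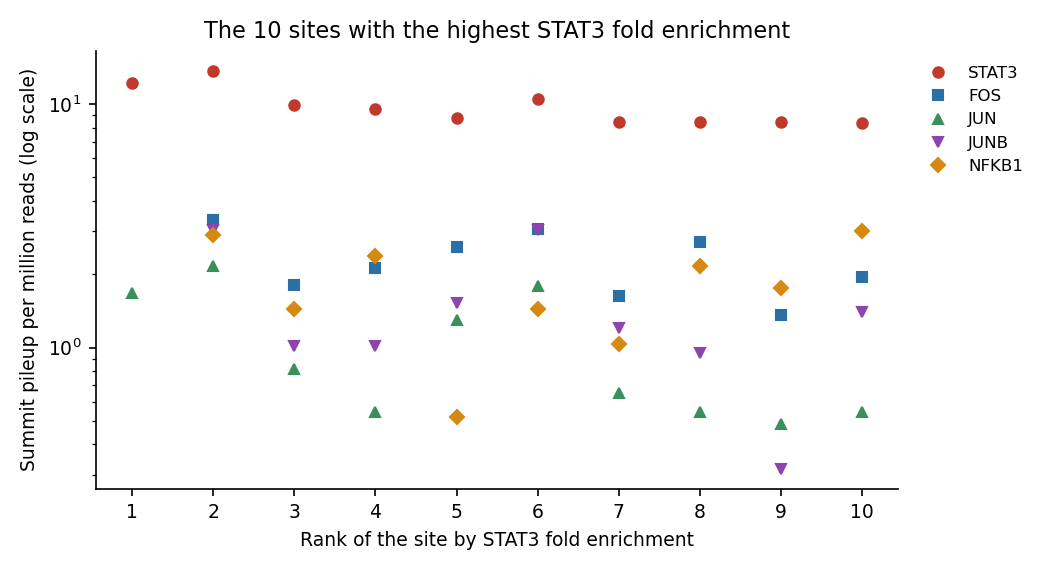
Summit pileup in RPM (log axis) of the 5 proteins in transformed cells at the 10 jointly gained sites with the highest STAT3 fold enrichment, in order of that enrichment. Each point is 1 summit in 1 library, and a missing point means that no summit was listed within 300 bp. STAT3 lies between 8.36 and 13.7 and, at sites picked for high STAT3, above the other proteins, and the first site has JUN as its only AP-1 protein.

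Ranking by all proteins at once brought up sites where STAT3 was less extreme. After chr8:107297660-107298490, the smallest rank sums over STAT3 and the 3 AP-1 proteins were at chr1:220498777-220499425, chr3:72387689-72388252, chr5:150459331-150459700 and chr5:1670494-1670876. At chr3:72387689-72388252 the STAT3 peak overlapped a peak of non-transformed cells, the nearest summit being JUNB at 614 bp. With NFKB1 added, chr11:19450120-19450546 and chr6:161549609-161549990 entered the first 5. At chr6:161549609-161549990 NFKB1 (3.83 RPM) was above STAT3 (2.12), FOS (2.40), JUN (1.95) and JUNB (1.97), and the nearest earlier summit was 23530 bp away. At chr5:150459331-150459700 an NFKB1 summit of non-transformed cells at 6.41 RPM lay 1154 bp away.

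Similar numbers of sites lay on both sides of the limits of the choice. With the nearest earlier summit 301 to 310 bp away, 88 sites were inside, and 94 STAT3 sites with it 291 to 300 bp away, otherwise alike, were outside. With the nearest AP-1 summit at 291 to 300 bp, 44 sites were inside, and 57 at 301 to 310 bp were outside. Just inside, chr17:14368397-14368964 (STAT3 fold enrichment 24.4) had an earlier JUNB summit 301 bp away. Just outside, chr8:82454704-82454917 (11.5) had an earlier FOS summit at 300 bp. The jointly gained site with the most distant AP-1 summit, chr11:118036646-118036806 (10.0), had JUNB alone, at 300 bp. The site most remote from earlier binding, chr16:26609548-26609800 (12.9), had FOS alone, 11 bp from STAT3, and its nearest earlier summit was 579125 bp away.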

How the data were processed

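The authors deposited 1 peak list per library, made by running MACS 2.0.10.20131216 on 36 bp reads that aligned uniquely. Per the file headers there was no control library, the effective genome size was 2700000000 bp, local background was taken over 1000000 bp, 1 read was kept per position, and the q-value cutoff was 0.05. The submitters' processing notes name Bowtie, MACS2 and hg19. The deposited pileup is a signal, the extended reads over a summit, not scaled by depth. Fold enrichment was deposited as the ratio of pileup to local background. Significance was deposited as −log10 p-value and −log10 q-value. Peaks were called per sample, without pooling.

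Groups were taken from the sample labels. Peaks on chromosomes 1 to 22 and X were used. Pileups were divided by the filtered reads in each header and given per 1000000 reads (RPM). Distances were measured from each STAT3 summit to the nearest summit of every other list. Quartiles of significance were taken over a whole list by −log10 q-value. Shares have Wilson 95% intervals and medians order-statistic 95% intervals, which cover the sampling of sites only. With 1 library per group no test between conditions was made. Named sites were the 10 with the highest STAT3 fold enrichment, the 5 with the smallest sum of significance ranks over STAT3, FOS, JUN and JUNB, the 5 with NFKB1 added, the 5 windows of 100 kb with the most sites, and the sites nearest the 300 bp limits. The site with the most distant earlier summit was chosen after its value was seen. The sites and measures were chosen with earlier results of these data known. The reference at hand is GRCh38, another build, so no sequence or gene was taken from it and no coordinate was converted. The code was tested on simulated summits. Python 3.11.15, numpy 2.4.6, pandas 2.3.3 and matplotlib 3.10.9 were used.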

Additional observations from a re-analysis of the deposited data

How the results depend on the processing

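No paired analysis was possible because each group has 1 library, and no library could be left out for the same reason. Of 55 recomputed values, 31 stayed within the interval of the value reported or, for the number of sites, within 1.5 times of it. The number of sites, 10658, was 6940 with −log10 q-values of at least 5 in the lists of transformed cells, 17311 when the FOS list of non-transformed cells was not used, 6367 when the FOS list of transformed cells was not used, 2429 with all 3 AP-1 proteins required and 2036 with a STAT3 pileup of at least 2 RPM. The share with NFKB1 was 25.2% and 27.8% with distance limits of 100 and 1000 bp, 21.5% with the stricter threshold, 28.4% without the NFKB1 list of non-transformed cells and 31.6% with the 3 AP-1 lists of transformed cells cut to 101014 summits each. In these it stayed below the 57.1% of all STAT3 peaks under the main setting. The share with all 3 AP-1 proteins was 20.5% and 25.9% with the limits of 100 and 1000 bp, 19.9% with the stricter threshold and 24.0% with lists of equal length. The median distance to AP-1 was 20 bp with the limit of 100 bp and 18 bp with the stricter threshold, which also raised the median STAT3 pileup to 1.34 RPM. The share with an earlier summit within 10 kb was 82.4% and 73.0% with the limits of 100 and 1000 bp, 78.3% with the stricter threshold and 81.0% with whole peaks. The share with another such site within 10 kb was 18.1% with the limit of 1000 bp, 14.2% with the stricter threshold and 19.8% with merged STAT3 summits. The lists of equal length and the check without overlapping earlier peaks were chosen after seeing the data. Motifs and genes were not run. The shallowest library was NFKB1 in non-transformed cells, with 4837474 reads, and the effect of depth was not tested.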

Other observations

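Seen from AP-1, summits without earlier binding were less often shared with STAT3. Of 164605 FOS summits in transformed cells, 52469 (31.9%) had no summit of any of the 5 proteins within 300 bp in non-transformed cells, and 18.7% (18.4 to 19.0%) of these had a STAT3 summit of transformed cells, against 50.6% (50.3 to 50.9%) of those with earlier binding. For JUN, 25303 summits (19.9%) had no earlier binding, with STAT3 at 18.5% against 54.3%. For JUNB, 18458 (18.3%) had none, with STAT3 at 22.6% against 59.0%. NFKB1 differed likewise, at 11.7% against 47.0% of FOS summits, 15.3% against 52.1% of JUN summits and 15.3% against 55.0% of JUNB summits. The summits without earlier binding were also weaker, with median fold enrichments of 5.47 against 11.3 for FOS, 4.96 against 8.31 for JUN and 5.28 against 9.80 for JUNB. The part of peak strength in these shares was not tested.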
